A study of Rattus norvegicus with 311 samples.

Results

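Rat liver cells that had received ketoconazole at 30 µM were compared with vehicle cells on day 1 after plating, across all genes measured. The libraries were picked by their deposited names: 8 name ketoconazole, 30 and day 1, and 8 name the untreated vehicle control of day 1. They make up 16 of the 311 libraries of the series. In both arms, 4 libraries came from hepatocytes grown alone (monoculture) and 4 from hepatocytes grown with non-parenchymal liver cells (co-culture), with 1 library of each kind on each of plates 1, 3, 5 and 7. All cells were primary cells of male Sprague Dawley rats, bought from Lonza and seeded on collagen-coated plates, and treatment covered the final day before lysis. What the vehicle contained is not given in the sources used here. The labels speak of biological replicates without naming animals, and p-values here therefore describe scatter among these libraries that could be technical. Ketoconazole at 1 and 10 µM, later days and the top doses of phenobarbital (10 mM), GW7647 (1 µM) and gemfibrozil (1000 µM) enter only where they are set beside this response.

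RNA was read with TempO-Seq, in which paired detector oligonucleotides are ligated on their target transcript and the ligated products are sequenced and counted. Vehicle libraries held 5907094 to 10820668 counts, with 11943 to 13449 of 22253 probes detected. Ketoconazole libraries held 4412501 to 7330946 counts, with 9346 to 13544 probes detected. The treated arm was thus shallower, and 3 of its libraries stood apart. In plate 1, the treated monoculture and co-culture libraries detected 10037 and 9346 probes. In plate 5, the treated monoculture library gave 7.07% of its counts to its 10 most abundant probes, against 12.03% to 16.6% in the other libraries. Vehicle and ketoconazole sat in different wells that were the same on every plate, so well position and treatment cannot be told apart. Levels below are in CPM, counts per 1000000 of the TMM-scaled library, and 3 levels in a row are the lowest, the median and the highest of 8 libraries.

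**Figure D1:**
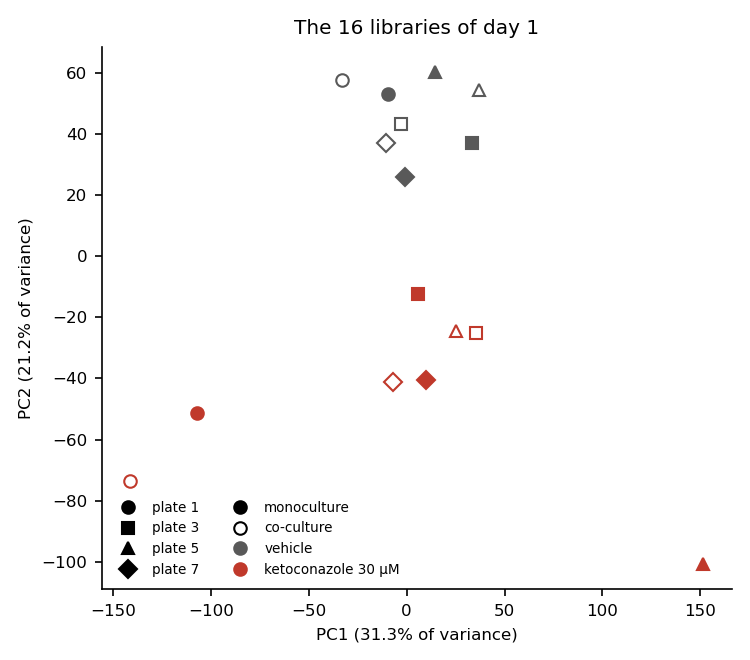
The first principal component (31.3% of the variance of log2 CPM, horizontal axis) against the second (21.2%, vertical axis) for the 16 libraries, with grey for vehicle, red for ketoconazole, filled symbols for monoculture, open symbols for co-culture and 1 shape per plate. The 8 vehicle libraries lie above 0 and the 8 ketoconazole libraries below 0 on the second component, and the 3 treated libraries that stand apart lie at -141, -107 and 152 on the first.

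Ketoconazole is an azole antifungal that blocks lanosterol demethylase, the enzyme encoded by Cyp51, in fungi and less strongly in mammals, and it also inhibits drug-metabolizing cytochrome P450 enzymes. Cells that run low on sterols release the transcription factor SREBP2 from retention by INSIG in the endoplasmic reticulum. SREBP2 then switches on the genes of cholesterol synthesis. A separate program, the integrated stress response, slows translation while raising the factor ATF4, which drives genes of amino acid supply and stress signalling. In the liver, ketoconazole is known for hepatotoxicity, and primary hepatocytes are used to study it.

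Of 10478 probes that passed the filter on low counts, 1001 were higher and 1284 lower with ketoconazole at an adjusted p under 0.05 (edgeR quasi-likelihood test with culture and plate as blocks, Benjamini-Hochberg). These are 9.55% and 12.3% of the probes tested, the background against which each gene group below is read. The 8 libraries of one arm lay all above or all below the other 8 for 504 probes, 4.81% of those tested. Genes of cholesterol synthesis and of the integrated stress response had the highest median changes of the pathway groups plotted by median and share called. Cell type markers and a mixed list of genes of known relevance (10 tested probes, median 1.16) are not among those groups. Genes of amino acid and glucose metabolism, PPAR-alpha targets, and actin and adhesion genes had the lowest among them. The counts moved with plate 7, without which 440 probes were higher and 709 lower, and with plate 3, without which 657 were higher and 1052 lower. With the library total as a covariate 339 were higher and 617 lower, and the totals of the arms differ as given above.

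**Figure D2:**
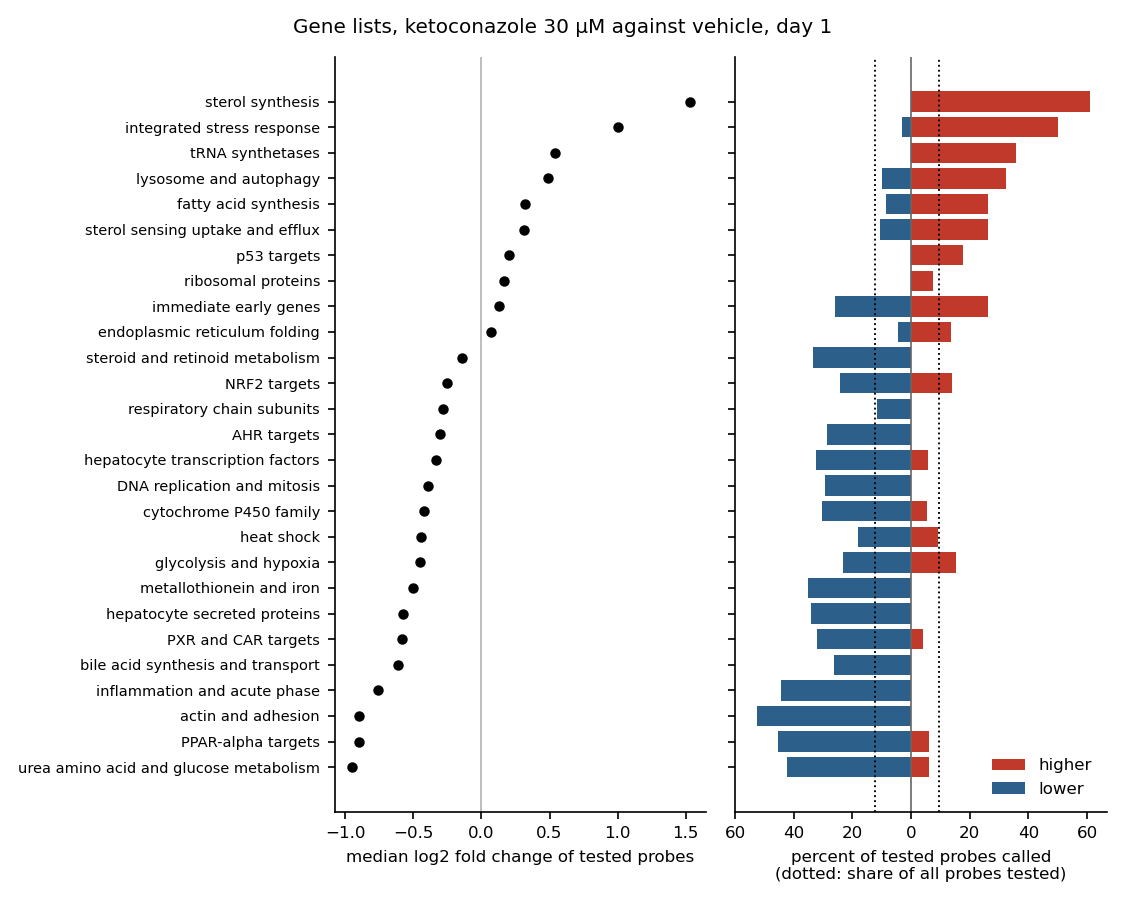
Gene groups of the comparison of ketoconazole 30 µM with vehicle on day 1. The left panel gives the median log2 fold change of a group's tested probes, and the right panel the percentage of tested probes called higher (red, to the right) or lower (blue, to the left), with dotted lines at 9.55% and 12.3%, the shares over all probes tested.

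Many genes of cholesterol synthesis rose. Of 18 tested probes, 11 rose, 0 fell and 7 were not called. The median log2 fold change was 1.53, beside -0.02 over all probes. Cyp51, the demethylase that ketoconazole inhibits, stood at 24.0, 57.1 and 67.8 CPM in vehicle and at 62.1, 188 and 285 CPM with ketoconazole. The change was 1.76 ± 0.18 on the log2 scale (SE, n = 8 per arm, edgeR adjusted p = 5.87e-06). All 8 pairs of the same plate and culture rose, and the arms overlapped only because the treated co-culture library of plate 1 lay within the vehicle range.

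The early, mevalonate arm of the pathway makes the isoprenoid building blocks. Its isomerase Idi1 was at 2.38, 6.48 and 13.8 CPM in vehicle and at 11.2, 30.1 and 41.2 CPM with ketoconazole, a log2 change of 2.10 ± 0.33 (SE, edgeR adjusted p = 0.000282). Fdps, the farnesyl diphosphate synthase, rose by 1.97 ± 0.30, from 16.5, 25.7 and 45.2 CPM to 23.2, 130 and 222 CPM. Mvd and Mvk, which act before Idi1, rose by 1.71 ± 0.29 and 0.90 ± 0.19. For Idi1, Fdps, Mvd and Mvk the lowest treated library lay inside the vehicle range. Hmgcs1, of the same arm of the pathway, was tested and not called.

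Squalene synthase, Fdft1, commits the pathway to sterols. It was at 8.22, 17.9 and 32.3 CPM in vehicle and at 28.1, 75.7 and 103.5 CPM with ketoconazole, a log2 change of 1.98 ± 0.22 (SE, edgeR adjusted p = 1.53e-05). The epoxidase Sqle and the cyclase Lss, which close the ring, rose by 1.91 ± 0.41 and 1.88 ± 0.38. The call of Sqle ended with the library total as a covariate (edgeR adjusted p = 0.0535) and in co-culture alone (0.0900), and that of Lss in co-culture alone (0.159). After Cyp51, the ketoreductase Hsd17b7 rose by 2.12 ± 0.30, from 3.92, 8.59 and 19.8 CPM to 11.4, 41.3 and 81.2 CPM. Nsdhl, which acts beside it in removing the methyl groups at the same carbon, had a log2 change of -0.63 ± 0.23 and was not called (edgeR adjusted p = 0.0560). Acat2 and Msmo1, of the first and a late step, also rose, by 1.90 ± 0.50 and 1.35 ± 0.37. Their calls ended without plate 3 (edgeR adjusted p = 0.146 and 0.139), plate 5 (0.0640 and 0.0551) or plate 7 (0.103 and 0.130), and without plate 1 the change of Acat2 was 2.62.

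**Figure D3:**
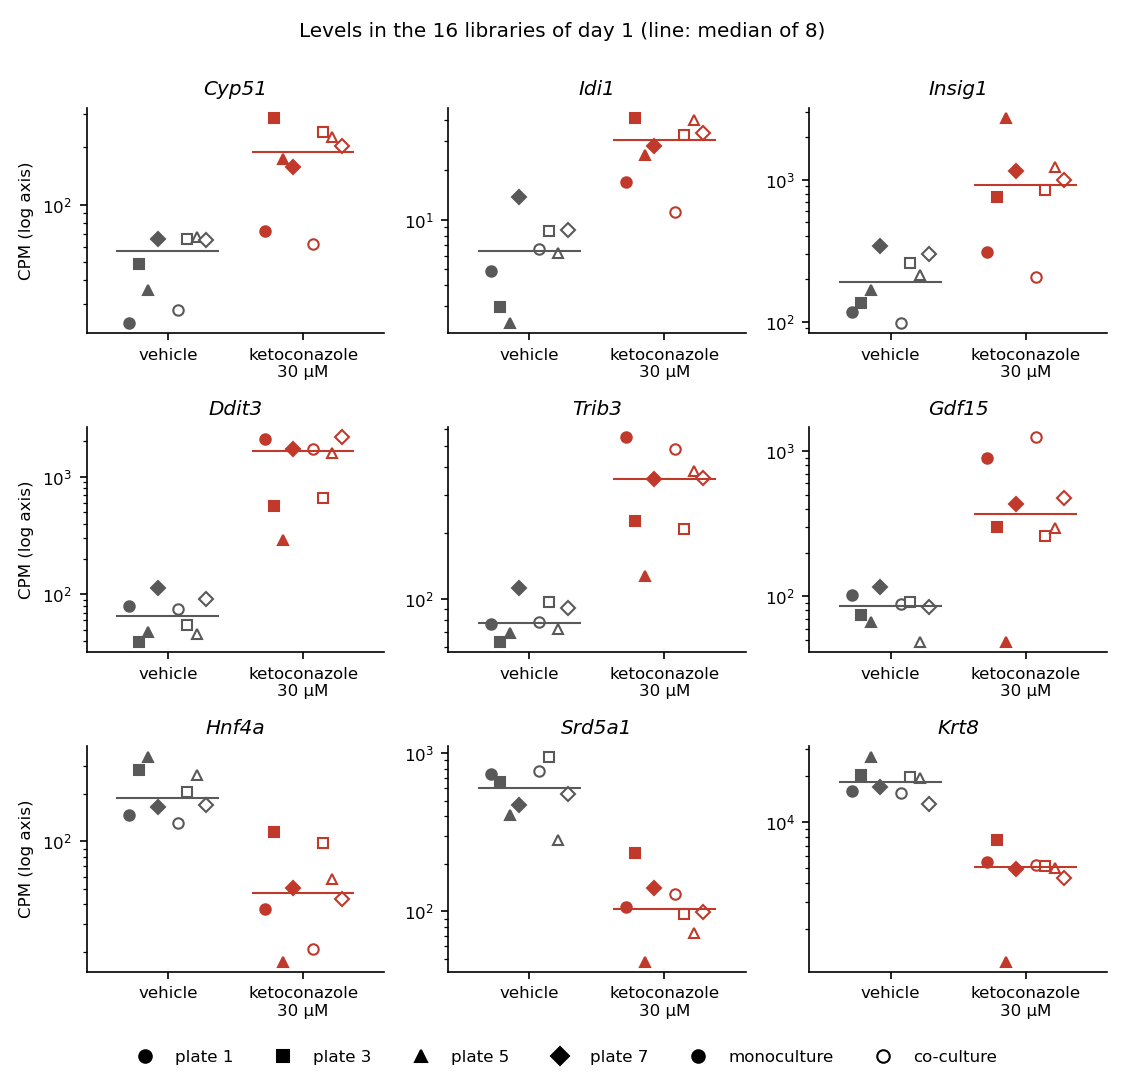
Levels in CPM (vertical log axes) of 9 genes in each of the 16 libraries, grey for vehicle and red for ketoconazole 30 µM, with filled symbols for monoculture, open symbols for co-culture, 1 shape per plate and a line at the median of 8. Ddit3, Trib3, Hnf4a, Srd5a1 and Krt8 do not overlap between the arms, while Cyp51, Idi1, Insig1 and Gdf15 do.

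Among the genes that sense, take up and move sterols, 5 of 19 tested probes rose and 2 fell, with a median log2 change of 0.31. Insig1, which holds SREBP factors back and is itself an SREBP target, was at 98.1, 191 and 343 CPM in vehicle and at 207, 925 and 2735 CPM with ketoconazole. Its log2 change was 2.08 ± 0.29 (SE, edgeR adjusted p = 0.000107). Its paralog Insig2 fell by 1.37 ± 0.26 on the log2 scale, from 14.4, 21.6 and 36.9 CPM to 5.06, 8.85 and 13.4 CPM, and the arms did not overlap. Npc1, the lysosomal cholesterol exporter, rose by 1.19 ± 0.17 with arms that did not overlap, from 39.4, 46.6 and 54.0 CPM to 66.6, 103 and 185 CPM. The higher members of this group numbered 2 without plate 3, 2 without plate 7 and 2 without the treated monoculture library of plate 3.

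Genes of fatty acid synthesis, several of which share SREBP control, moved less. Of 23 tested probes 6 rose and 2 fell. Fasn, the fatty acid synthase, rose by 1.42 ± 0.32 (SE, edgeR adjusted p = 0.0040), from 5.29, 12.9 and 27.1 CPM to 6.66, 52.8 and 129 CPM. Gpam, which starts triglyceride synthesis, fell by 1.24 ± 0.15, from 127, 201 and 382 CPM to 59.2, 85.1 and 152 CPM. Both pairs of ranges overlapped. The higher count was 2 without plate 3, 3 without plate 7, and 2 without the treated co-culture library of plate 5 or the treated monoculture library of plate 3.

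Many genes of the integrated stress response rose. Of 32 tested probes 16 rose and 1 fell, and the median log2 change was 1.00. Ddit3, which encodes the stress factor CHOP, was at 39.3, 65.4 and 113 CPM in vehicle and at 291, 1649 and 2170 CPM with ketoconazole. Its log2 change of 4.19 ± 0.29 (SE, edgeR adjusted p = 3.47e-07) was the largest of this group, and no treated library came near the vehicle range. Atf4 itself, the factor at the centre of the program, rose by 1.24 ± 0.19, from 134, 194 and 253 CPM to 324, 396 and 653 CPM, also without overlap. The arms of 7 of the 32 probes did not overlap.

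Some targets of ATF4 that feed amino acid supply and feedback rose with it. Of the 32 tested probes of the group 15 were not called, among them that of Asns, which makes asparagine. Trib3, a pseudokinase that restrains AKT and ATF4, went from 63.1, 77.0 and 111 CPM to 126, 355 and 550 CPM, a log2 change of 1.96 ± 0.23 (SE, edgeR adjusted p = 2.41e-05). Pycr1, which completes proline synthesis, went from 7.13, 13.1 and 18.0 CPM to 27.2, 39.5 and 49.3 CPM, a change of 1.66 ± 0.20. Neither gene had overlapping arms. Chac1, which degrades glutathione, rose by 2.12 ± 0.32, from 3.15, 5.79 and 7.25 CPM to 5.87, 25.7 and 37.7 CPM, with a single treated library inside the vehicle range. Sesn2, an inhibitor of the growth kinase complex mTORC1, rose by 1.78 ± 0.26. Gdf15, a secreted stress hormone, rose by 2.21 ± 0.34, from 48.4, 86.4 and 117 CPM to 48.8, 367 and 1247 CPM, and 1 of 8 pairs went down, that of the treated monoculture library of plate 5.

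Stretches before the start sites of 4 called stress response genes are shown because they hold the letters of an ATF4 site, TGATGNAA, searched on both strands within 250 bases before the start. Capitals mark the match, and sequences are from RefSeq on GRCr8, written along the gene's own strand. Trib3 lies on the minus strand at chr3:161275534-161275584, and Chac1 on the plus strand at chr3:126795934-126796001. Pycr1 lies on the minus strand at chr10:106420906-106420973, and Slc7a1 on the plus strand at chr12:11664428-11664487.
Trib3: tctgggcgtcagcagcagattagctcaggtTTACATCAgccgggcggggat
Chac1: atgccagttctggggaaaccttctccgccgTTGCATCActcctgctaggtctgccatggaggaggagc
Pycr1: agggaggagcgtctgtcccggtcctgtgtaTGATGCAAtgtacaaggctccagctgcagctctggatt
Slc7a1: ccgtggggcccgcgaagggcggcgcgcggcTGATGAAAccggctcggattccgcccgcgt

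These 4 are the members with the letters among the 14 called higher that have a promoter entry. Of the 26 tested members with an entry, called or not, 6 held the letters, these 4 included. Over all genes with an entry 3.58% hold the letters in such a window. In Trib3 and Chac1 the match is on the opposite strand, so it reads as the reverse complement. Slc7a1, a cationic amino acid importer, has 2 probes, which rose by 2.77 ± 0.53 and 1.10 ± 0.27 on the log2 scale (SE, edgeR adjusted p = 0.00140 and 0.00740). With the library total as a covariate neither was called (edgeR adjusted p = 0.0580 and 0.147), in co-culture alone the first was not (0.0845), and without plate 7 the second was not (0.0918). For the sterol element TCACNCCAC, 0 of 9 called synthesis genes with an entry held the letters, beside 1.09% of all genes. A match is a run of letters and was not tested as a binding site.

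Aminoacyl-tRNA synthetases, which charge tRNAs and include ATF4 targets, rose for 5 of 14 tested probes and fell for 0, with a median log2 change of 0.54. Wars, the tryptophan enzyme, rose by 1.45 ± 0.19 (SE, edgeR adjusted p = 5.58e-05), from 40.4, 51.2 and 73.2 CPM to 76.5, 160 and 230 CPM, without overlap. Eprs, which charges glutamate and proline, rose by 1.11 ± 0.17. The count was 3 without plate 1, 2 without plate 3, 3 without plate 7, 3 without either co-culture library of plate 5, and 8 without the 3 treated libraries that stand apart. Chaperones and sensors of endoplasmic reticulum folding moved less, with 3 of 22 probes higher and 1 lower and a median of 0.07. Hspa5, the main chaperone of that compartment, rose by 1.44 ± 0.20, from 11.8, 30.4 and 43.6 CPM to 33.9, 70.2 and 139 CPM, with overlapping arms. Without the treated monoculture library of plate 5, 6 of these probes were higher, and without the whole plate, 5.

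Lysosome and autophagy genes rose in part. Of 40 tested probes 13 rose and 4 fell, with a median log2 change of 0.49. Flcn, a regulator of lysosomal nutrient signalling, rose by 1.69 ± 0.27 (SE, edgeR adjusted p = 0.000293), from 2.31, 5.02 and 11.3 CPM to 10.4, 18.2 and 22.9 CPM. Its partner Fnip2 has 2 probes, with log2 changes of 1.14 ± 0.16 and 1.22 ± 0.41 (edgeR adjusted p = 0.000117 and 0.0409). The call of the second ended without plate 1, without plate 7 (adjusted p = 0.202) and without most single libraries, and its change was 0.65 without the treated monoculture library of plate 5 and 0.52 without the 3 libraries that stand apart. Ctsa, a lysosomal protease, rose by 1.70 ± 0.30. Both probes of Wipi1, which acts in autophagosome formation, fell, by 1.71 ± 0.25 and 1.19 ± 0.18. The higher count was 8, 7 and 6 without plates 1, 3 and 7, and the lower count was 2 without plate 5, without plate 7 or without either co-culture library of plate 5.

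PPAR-alpha targets, which carry fatty acid oxidation, fell more often than they rose. Of 33 tested probes 15 fell and 2 rose, with a median log2 change of -0.90. Acadvl, which starts the oxidation of long chains, was at 89.4, 153 and 204 CPM in vehicle and at 39.96, 52.3 and 67.2 CPM with ketoconazole. Its log2 change was -1.48 ± 0.17 (SE, edgeR adjusted p = 2.41e-05), and the arms did not overlap. Eci1, an isomerase for unsaturated fatty acids, and Cidec, a lipid droplet protein, fell by 2.44 ± 0.41 and 2.46 ± 0.37. Cidec went from 61.3, 73.9 and 109 CPM to 2.65, 11.9 and 40.8 CPM, again without overlap. Without plate 7 the number of lower probes was 8.

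The 2 members that rose do different work. Acot2, a mitochondrial thioesterase that releases fatty acids from coenzyme A, rose by 2.04 ± 0.18 on the log2 scale (SE, edgeR adjusted p = 1.55e-06), from 9.79, 16.9 and 27.7 CPM to 54.0, 68.6 and 106 CPM. Hadhb, a subunit of the trifunctional oxidation enzyme, rose by 0.99 ± 0.17, from 67.7, 97.2 and 121 CPM to 136, 185 and 270 CPM. Neither had overlapping arms.

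Cytochrome P450 genes, the family that ketoconazole inhibits as enzymes, were lower more often than higher: 11 of 36 tested probes fell and 2 rose, Cyp51 and Cyp20a1. Cyp2c22, which metabolizes retinoic acid, was at 1100, 1670 and 4009 CPM in vehicle and at 285, 452 and 763 CPM with ketoconazole, a log2 change of -2.00 ± 0.22 (SE, edgeR adjusted p = 1.47e-05). Cyp2d4 fell by 1.94 ± 0.26, and Cyp2f4 by 2.73 ± 0.28, from 27.4, 31.2 and 72.1 CPM to 2.66, 5.73 and 9.89 CPM. The arms of these 3 genes did not overlap. Cyp3a2, a target of the drug receptor PXR, was not called, at 0.32 ± 0.28 (edgeR adjusted p = 0.462). Near-identical members of this family can share reads at a probe, and how such reads were counted is not given in the sources used here. The lower count was 6, 7 and 5 without plates 3, 5 and 7.

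Targets of the drug receptors PXR and CAR fell for 8 of 25 tested probes and rose for 1, with a median log2 change of -0.58. Gstm2, a glutathione transferase, was at 155, 487 and 715 CPM in vehicle and at 24.2, 61.2 and 80.8 CPM with ketoconazole, a log2 change of -2.84 ± 0.29 (SE, edgeR adjusted p = 5.91e-06). Ephx1, the microsomal epoxide hydrolase, fell by 1.50 ± 0.31, from 917, 1460 and 2030 CPM to 123, 517 and 856 CPM. Neither pair of ranges overlapped. The lower count was 4 without plate 3, 5 without plate 5, 4 without plate 7 and 5 without either co-culture library of plate 5. Of 7 AHR targets tested 2 fell, among them Cyp1a2, by 1.13 ± 0.26, whose call ended with the library total as a covariate (edgeR adjusted p = 0.0841). The lower AHR count was 1 without plates 1, 3 or 7, without the treated co-culture libraries of plates 1, 3 or 5, and without the vehicle co-culture library of plate 3.

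NRF2 targets, the antioxidant genes, moved both ways, with 4 of 29 probes higher and 7 lower. Gstp1 rose from 149, 333 and 496 CPM to 527, 725 and 2739 CPM, a log2 change of 1.49 ± 0.22 (SE, edgeR adjusted p = 0.0002), and Gsto1 by 1.19 ± 0.17. Osgin1 fell by 1.17 ± 0.18, from 245, 289 and 395 CPM to 64.5, 128 and 223 CPM. The arms of these 3 genes did not overlap. Without plate 7 the lower count was 3.

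Steroid and retinoid metabolism fell for 7 of 21 tested probes and rose for 0. Srd5a1, the steroid reductase that makes dihydrotestosterone, went from 283, 605 and 951 CPM to 48.1, 103 and 235 CPM, a log2 change of -2.39 ± 0.21 (SE, edgeR adjusted p = 1.56e-06). Every treated library lay below every vehicle library.

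Among transcription factors that set hepatocyte identity, 11 of 34 tested probes fell and 2 rose. Onecut1 was at 41.0, 82.5 and 160 CPM in vehicle and at 4.19, 15.5 and 24.0 CPM with ketoconazole, a log2 change of -2.72 ± 0.25 (SE, edgeR adjusted p = 2.45e-06). Hnf4a, the central regulator of hepatocyte genes, fell by 2.06 ± 0.28, from 130, 187 and 344 CPM to 17.4, 46.9 and 115 CPM. Foxa3, a pioneer factor, fell by 2.61 ± 0.32, from 176, 273 and 441 CPM to 15.2, 54.4 and 91.3 CPM. The arms of these 3 genes did not overlap. Without plate 7 the lower count was 7.

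Proteins that hepatocytes secrete into plasma fell for 14 of 41 tested probes and rose for 0, with a median log2 change of -0.58. Tf, which carries iron in plasma, went from 800, 1755 and 1922 CPM to 231, 470 and 613 CPM, a log2 change of -1.71 ± 0.25 (SE, edgeR adjusted p = 0.000145). F5, a clotting cofactor, fell by 2.91 ± 0.45, from 36.2, 93.5 and 157 CPM to 0, 10.96 and 32.5 CPM. Fga, a fibrinogen chain, fell by 1.60 ± 0.30. The lower count was 7 without plate 3, 8 without plate 7 and 9 without the treated co-culture library of plate 3.

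Metabolism of amino acids, urea and glucose had the lowest median of the pathway groups, -0.95, with 14 of 33 tested probes lower and 2 higher. Arg1, the last enzyme of the urea cycle, went from 62.5, 100.2 and 425 CPM to 3.12, 19.7 and 32.6 CPM, a log2 change of -3.16 ± 0.39 (SE, edgeR adjusted p = 4.11e-05). Nags, whose product switches on the first step of that cycle, fell by 2.20 ± 0.31, from 37.5, 47.95 and 64.4 CPM to 2.19, 10.9 and 20.8 CPM. Cps1, which carries out that first step, fell by 2.74 ± 0.42. Pygl, which breaks down glycogen, fell by 1.05 ± 0.16. The arms of Arg1, Nags and Pygl did not overlap.

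The summed level of hepatocyte markers overlapped between the arms and was not tested. It ran from 39730 to 93810 CPM in vehicle (median 54260) and from 10940 to 60570 CPM with ketoconazole (median 42030), and 6 of 14 tested probes fell. That count was 3 without plate 3, without plate 7 and without either co-culture library of plate 3. Ttr was the highest member of the sum, with means of 34200 CPM in vehicle and 26790 CPM with ketoconazole. Alb, the defining hepatocyte transcript, was present in every library at 926 CPM or more. It averaged 5658 CPM in vehicle and 3148 CPM with ketoconazole, a log2 change of -0.857 (edgeR adjusted p = 0.0290). That call ended without plate 1, 3 or 7 (edgeR adjusted p = 0.0702, 0.120 and 0.0665). It also ended with the library total as a covariate (0.171) and in co-culture alone (0.0606). In bulk samples, fewer cells of a type and less RNA per cell cannot be told apart.

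Marker sums of the other liver cell types overlapped as well. Macrophage markers summed to 172 to 389 CPM in vehicle (median 269) and 141 to 328 CPM with ketoconazole (median 239), with 3 of 14 tested probes lower. Stellate and mesenchymal markers summed to 86.7 to 397 CPM (median 249) and 22.9 to 234 CPM (median 71.1). Of 8 tested probes 3 were lower, and 1 without plate 7. The highest members of this sum were Tagln, with means of 147 and 42.2 CPM, and Reln, with 41.7 and 18.9 CPM. Col1a1 and Postn had no count in any of the 16 libraries. Endothelial markers summed to 55.2 to 291 CPM (median 128) and 44.3 to 221 CPM (median 100.1), with 1 of 12 lower. The part of cell composition in the gene changes was not tested.

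Many actin, keratin and adhesion genes fell. Of 40 tested probes 21 fell and 0 rose, with a median log2 change of -0.90. Krt8, a keratin of simple epithelia, went from 13100, 18200 and 26700 CPM to 1232, 5101 and 7695 CPM, a log2 change of -1.92 ± 0.30 (SE, edgeR adjusted p = 0.000268). Its partner Krt18 fell by 1.72 ± 0.28, and the arms of both were apart. Itgav, an integrin chain, fell by 1.16 ± 0.16, from 108, 169 and 248 CPM to 50.1, 79.9 and 91.1 CPM, without overlap. Amotl2, a junction protein and target of YAP signalling, fell by 1.63 ± 0.22. Without plate 7 the lower count was 10.

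Inflammatory and acute phase genes fell for 12 of 27 tested probes and rose for 0, with a median log2 change of -0.76. Nfkb1, a subunit of the factor NF-kappaB, went from 230, 287 and 384 CPM to 13.7, 74.4 and 107 CPM, a log2 change of -2.12 ± 0.32 (SE, edgeR adjusted p = 0.000194). Its inhibitor Nfkbia fell by 2.06 ± 0.33, from 21.3, 31.6 and 51.3 CPM to 2.88, 6.91 and 15.6 CPM. The arms of both genes were apart. Icam1, an adhesion receptor for leukocytes, fell by 1.37 ± 0.20, and C3, the central complement protein, by 1.19 ± 0.21, with overlapping arms.

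Glycolysis and hypoxia genes split, with 4 of 26 tested probes higher and 6 lower. Hif1a, the oxygen-regulated factor, rose by 1.56 ± 0.18 on the log2 scale (SE, edgeR adjusted p = 1.63e-05), from 27.9, 33.4 and 47.97 CPM to 74.1, 93.3 and 171 CPM. Egln1, whose product marks HIF proteins for breakdown, fell by 1.31 ± 0.21, from 38.0, 48.9 and 77.5 CPM to 11.9, 20.7 and 32.1 CPM. Ldha, a HIF target that makes lactate, fell by 1.38 ± 0.24, and Slc16a3, a lactate exporter, by 2.31 ± 0.24. The arms of Hif1a, Egln1 and Ldha did not overlap.

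Immediate early genes, the first to answer growth and stress signals, also split, with 6 of 23 tested probes higher and 6 lower. Egr1 fell by 1.90 ± 0.25 on the log2 scale (SE, edgeR adjusted p = 7.04e-05), from 116, 152 and 254 CPM to 22.9, 46.6 and 73.7 CPM. Klf10, induced by TGF-beta, fell by 1.97 ± 0.25. Myc, a growth factor-responsive transcription factor, rose by 1.12 ± 0.16, from 42.8, 56.6 and 80.8 CPM to 106, 127 and 187 CPM. The arms of these 3 genes did not overlap. The higher count was 3 without plate 5 and 2 without plate 7. Among p53 targets 3 of 17 rose and 0 fell, and 5 rose without the treated monoculture library of plate 5. Gadd45a, a growth arrest gene that ATF4 also drives, rose by 1.93 ± 0.28, from 343, 471 and 611 CPM to 1031, 1743 and 3728 CPM, without overlap.

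The largest changes outside these groups included epithelial junction and scaffold genes. Cldn4, which encodes a tight junction claudin, had 2 counts in 1 of the 8 vehicle libraries and 571 counts in the treated libraries, a ratio of 353 with an exact 95% interval of 97.1 to 2920 that covers counting error only. Treated levels ran from 5.18 to 25.8 CPM. Cldn4 is also a bile duct marker. The markers of bile duct and progenitor cells summed to 155 to 332 CPM in vehicle and 113 to 228 CPM with ketoconazole. Of 8 tested probes 1 was higher, Cldn4 itself, and 1 was lower, Onecut1, given above among the hepatocyte factors. Sfn, the epithelial 14-3-3 protein that p53 can induce, rose by 3.31 ± 0.37 on the log2 scale (SE, edgeR adjusted p = 1.53e-05), from 30.7, 55.5 and 148 CPM to 202, 557 and 1264 CPM. Ank2, which links membrane proteins to the spectrin skeleton, rose by 3.94 ± 0.28, from 1.78, 2.64 and 5.55 CPM to 16.3, 51.9 and 68.2 CPM. Slc4a11, a membrane transporter, rose by 4.03 ± 0.35, and Gab2, an adaptor of receptor kinases, by 3.02 ± 0.31. In each of these genes every treated library was above every vehicle library.

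Some of the highest values rested on few counts or 1 library. Fmn1, an actin-nucleating formin, rose by 5.48 ± 0.58 at 1 probe, from at most 0.839 CPM in vehicle to 4.25, 7.80 and 44.5 CPM, while its other tested probe was not called. Shc4, a signalling adaptor, was at 135 CPM in the treated monoculture library of plate 5 and at a median of 2.77 CPM over the 8 treated libraries. Its log2 change was 4.96 ± 1.01 with that library and 3.32 without it, 3.42 without plate 5, 6.02 without plate 7 and 6.07 without the vehicle monoculture library of plate 7. With the library total as a covariate it was not called (edgeR adjusted p = 0.171).

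Among the strongest falls, Tm4sf4, a tetraspanin-like membrane protein, went from 342, 1224 and 1672 CPM to 9.21, 83.2 and 286 CPM, a log2 change of -3.74 ± 0.50 (SE, edgeR adjusted p = 8.02e-05). Fam13a fell by 3.67 ± 0.35, from 13.1, 16.6 and 61.2 CPM to 0.266, 1.36 and 6.04 CPM. Pdgfb, a growth factor for mesenchymal cells, was at 3.68, 16.8 and 57.0 CPM in vehicle and at 0, 0.566 and 3.35 CPM with ketoconazole. Its log2 change was -4.77 ± 0.59, and -5.56 without plate 3. The arms of these 3 genes did not overlap. Arg1 also moved with a plate: without plate 7 its log2 change was -3.77.

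**Figure D4:**
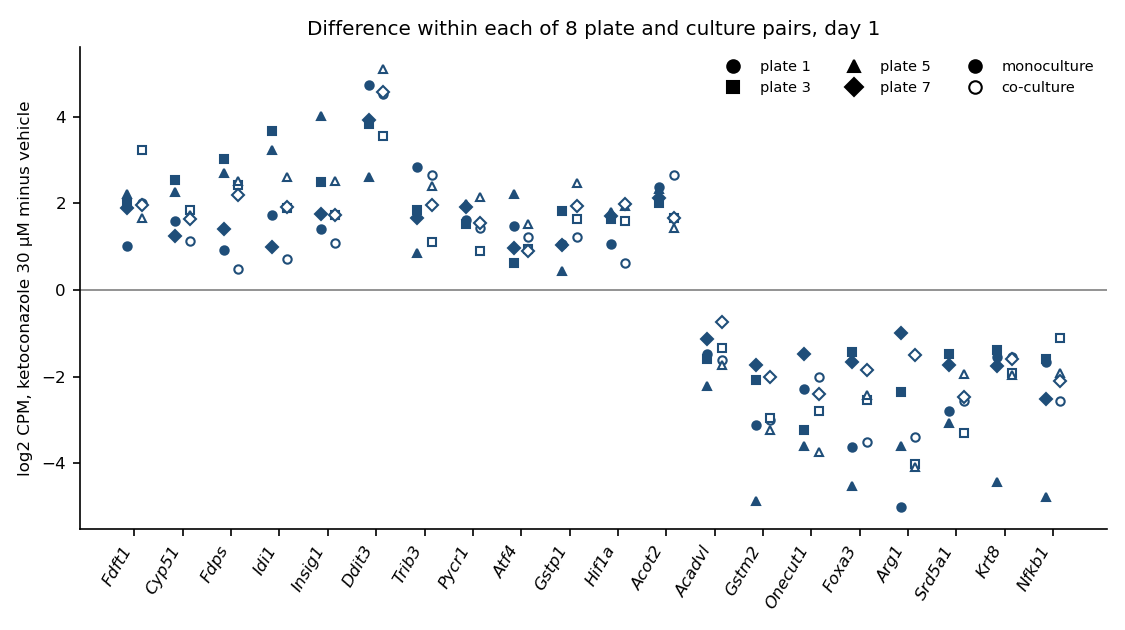
The difference in log2 CPM, ketoconazole 30 µM minus vehicle (vertical axis), within each of the 8 pairs of the same plate and culture for 20 genes, with filled symbols for monoculture, open symbols for co-culture and 1 shape per plate. The 12 genes on the left are above 0 and the 8 on the right below 0 in all 8 pairs. These genes were picked with their values known. Of the 2285 probes called against vehicle, 1421 kept their direction in all 8 pairs.

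The study set the 2 culture models side by side, which asks whether non-parenchymal cells alter the response. The difference of the ketoconazole response between co-culture and monoculture passed the threshold for 0 of 10478 probes, 0% (edgeR interaction test). At an unadjusted p under 0.05 there were 144, and DESeq2 called 0 with 288 unadjusted. Both are below the share of 0.05 that chance alone gives, so the test was conservative here. Without the 3 treated libraries that stand apart 0 of 10969 were called, with 543 unadjusted. The absence of calls does not show that the 2 cultures responded alike. Co-culture alone gave 486 higher and 620 lower probes, and monoculture alone gave 0 called with 1294 at an unadjusted p under 0.05. The treated monoculture libraries of plates 1 and 5 are 2 of the 3 that stand apart.

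Over the doses, cholesterol synthesis and stress genes followed different courses. Cyp51 averaged 50.2 ± 18.6 CPM in vehicle (SD, n = 8 in each of these arms), 72.6 ± 29.7 at 1 µM, 206 ± 44.1 at 10 µM and 177 ± 78.6 at 30 µM. Ddit3 averaged 68.4 ± 25.8, 58.0 ± 31.9, 94.7 ± 48.02 and 1351 ± 735 CPM in the same order. Acadvl averaged 149 ± 40.8, 129.9 ± 40.5, 96.04 ± 17.2 and 51.9 ± 9.73 CPM. Cyp51 was thus about as high at 10 µM as at 30 µM, Ddit3 was high at 30 µM alone, and the mean of Acadvl was lower at each higher dose.

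**Figure D5:**
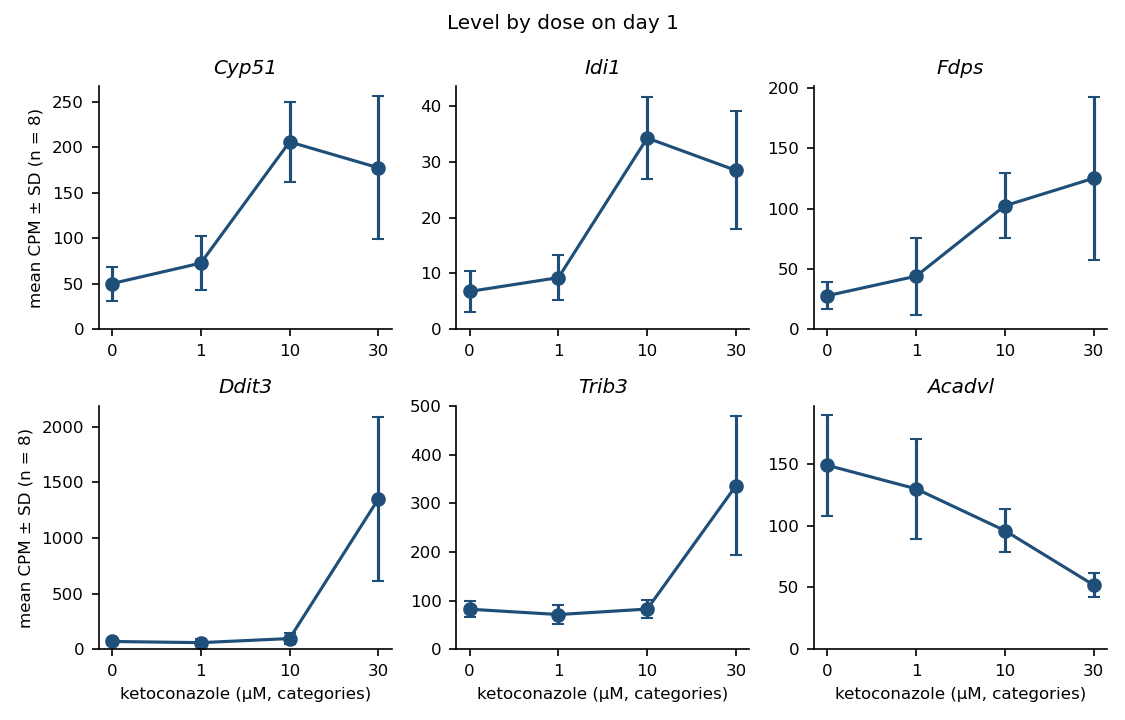
Mean level in CPM ± SD of 8 libraries (vertical axes, linear) at 0, 1, 10 and 30 µM ketoconazole on day 1 (horizontal axes, doses as evenly spaced categories). Cyp51 and Idi1 are highest at 10 µM and Fdps at 30 µM, Ddit3 and Trib3 rise at 30 µM alone, and the Acadvl means fall from dose to dose.

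The step from 10 to 30 µM was tested without the vehicle libraries. Of 10498 probes 570 were higher and 737 lower at 30 µM, 5.43% and 7.02% (edgeR adjusted p under 0.05). Of the cholesterol synthesis genes 0 were higher and 1 was lower, Nsdhl, at -1.04 ± 0.19 (SE, edgeR adjusted p = 0.00221), while Cyp51 differed by -0.33 ± 0.19 (edgeR adjusted p = 0.284). Of the stress response probes 16 were higher, with Ddit3 at 3.78 ± 0.29 and Trib3 at 1.97 ± 0.22. Actin and adhesion genes were lower for 16 probes, and Srd5a1 fell by 2.13 ± 0.21. This comparison shares its 30 µM libraries with the one against vehicle. Without plate 3, 626 probes were called and without plate 7, 676.

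Median levels of the called genes, relative to vehicle, show the same courses as a description, since the 30 µM value chose them. For the 11 higher synthesis genes the median log2 ratio of means to vehicle was 0.20, 1.84 and 1.92 at 1, 10 and 30 µM, and 6 of them were highest at 10 µM. For the 16 higher stress response genes it was 0.04, 0.23 and 1.55, and all 16 were highest at 30 µM. For the 21 lower actin and adhesion genes it was -0.18, -0.23 and -1.41, and all 21 were lowest at 30 µM.

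The response of day 1 was then set against those of days 3 and 7, when other wells were treated for their last day. It differed from day 3 for 49 of 12527 probes, 0.391%, and from day 7 for 211, 1.68% (edgeR interaction tests, adjusted p under 0.05). The levels by day were scaled by TMM over both arms of all 3 days, so day 1 means differ slightly from those above. On day 1 Cyp51 averaged 51.6 ± 19.0 CPM in vehicle and 179 ± 79.4 CPM with ketoconazole (SD, n = 8 per arm). The 2 means were 30.5 ± 4.69 and 151 ± 38.2 CPM for day 3, and 27.6 ± 9.45 and 117 ± 86.7 CPM for day 7. Its response did not pass the test of a difference on either day, with edgeR adjusted p = 0.747 and 0.921. For Ddit3 they were 70.4 ± 26.7 and 1356 ± 733 CPM on day 1, against 127 ± 49.7 and 336 ± 208 CPM on the third day. That response was larger on day 1 by 2.90 ± 0.63 on the log2 scale (SE, edgeR adjusted p = 0.0213), and against day 7 by 2.14 ± 0.65, which did not pass (edgeR adjusted p = 0.0705).

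For some falls the vehicle level differed between the days too. Gstm2 averaged 463 ± 216 CPM in vehicle and 57.1 ± 18.2 CPM with ketoconazole on day 1, against 60.02 ± 31.6 and 62.2 ± 42.9 CPM on day 7 (SD, n = 8 per arm). The responses differed by -3.04 ± 0.49 on the log2 scale (SE, edgeR adjusted p = 0.000175). For Nfkb1 the means were 305 ± 58.2 and 70.3 ± 33.6 CPM on day 1, against 98.9 ± 35.3 and 71.8 ± 33.8 CPM on day 7, a difference of -1.65 ± 0.40. In both genes the vehicle arm of day 7 was near the treated level of day 1. Anxa8, an annexin, had the largest difference from day 3 among the falls, at -4.52 ± 0.73. These counts were small and moved with every plate: without plates 1, 3, 5 and 7 the count against day 3 was 16, 8, 7 and 2, and against day 7 it was 131, 37 and 43 without plates 1, 3 and 5 and again under 211 without plate 7. Without the 3 libraries that stand apart the counts were 17 and 80.

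Against the other 3 compounds at their top doses, as 1 mean and without vehicle, 456 of 11704 probes were higher with ketoconazole and 481 lower, 3.9% and 4.11%. The doses differ in kind, and in monoculture the libraries named for phenobarbital carry ketoconazole as compound label, so this contrast rests on the library names. Of the cholesterol synthesis probes 11 were higher and 0 lower, among them 9 of the 11 that had risen against vehicle. Both comparisons use the same ketoconazole libraries, so this overlap is not separate support. Cyp51 averaged 177 CPM with ketoconazole, 54.2 ± 20.9 with phenobarbital, 72.3 ± 25.5 with GW7647 and 48.9 ± 19.9 CPM with gemfibrozil, a contrast of 1.55 ± 0.16 (SE, edgeR adjusted p = 1.59e-07). Trim15, a ubiquitin ligase, was at 72.8 ± 43.2 CPM with ketoconazole and at 5.20 ± 5.66, 6.83 ± 5.87 and 4.39 ± 6.37 CPM with the others, a contrast of 4.56 ± 0.38 (edgeR adjusted p = 2.16e-09).

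The stress gene Ddit3 averaged 1351 ± 735 CPM with ketoconazole, 2756 ± 3995 with phenobarbital, 62.6 ± 34.0 with GW7647 and 834 ± 861 CPM with gemfibrozil (SD, n = 8 per arm), and its contrast did not pass (1.69 ± 0.60, edgeR adjusted p = 0.0800). Of the stress response probes 3 were higher with ketoconazole. PPAR-alpha targets were lower for 23 probes, and GW7647 and gemfibrozil are known activators of that receptor. Acadvl averaged 376 ± 119 CPM with GW7647 and 179 ± 141 CPM with gemfibrozil, a contrast of -1.90 ± 0.24 (edgeR adjusted p = 4.37e-06). The number called was 567, 419 and 596 without plates 1, 3 and 7, and 530 without the 3 libraries that stand apart.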

How the data were processed

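The deposited table holds raw counts per probe, made for the authors by the assay's supplier BioSpyder, per the labels' protocols, for 22253 probes and 311 libraries. Bowtie is named in the submitters' processing notes; no version, genome build or probe list is given in the sources used here. Groups follow the library names, and the plate number in a name was taken as the replicate and block.

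Probes passed filterByExpr of edgeR 4.0.16 (R 4.3.3) with a minimum count of 10. Libraries were scaled by TMM and tested with the two-sided quasi-likelihood test, with culture and plate as covariates and Benjamini-Hochberg adjustment over all probes tested at a threshold of 0.05. Each comparison was fitted on its own libraries alone (all 3 days for the comparisons of days). Each SE is the size of the log2 change divided by the square root of the F statistic of its test, an approximation. A prior count of 2 entered log2 CPM, where CPM is counts per 1000000 of the scaled library. TMM factors for levels came from all libraries of day 1, and for levels by day from both arms of all 3 days. The scripts were tested on simulated data. DESeq2 1.42.0 and limma 3.58.1 gave alternatives.

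Libraries of the same plate deviated together, with a mean correlation of 0.257 (lowest 0.0211), and the plate is in the labels. The mean for other plates was -0.0852. Deviations were taken from the mean of each group, which ties this value to the first, so it is no separate comparison. No 2 libraries were alike, the lowest chi-square per probe within a group being 36.9.

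The gene groups, the comparison and the tests were chosen with earlier results of these data known. Genes named include the 15 highest and 15 lowest changes. These passed the test with the same direction in all 8 pairs and at least 10 CPM in 1 arm. Up to 4 per group by smallest p, called or not, and all tested genes of known relevance were added. From each other comparison came the 3 highest and 3 lowest called probes with at least 10 CPM in 1 group. Some genes the rule names are not reported here. A further 20 were named after their values were seen: Acat2, Atf4, Chac1, Ctsa, Cyp20a1, Eci1, Fga, Flcn, Hadhb, Idi1, Krt18, Ldha, Lss, Msmo1, Mvd, Mvk, Nsdhl, Sesn2, Slc7a1 and Sqle. Hmgcs1, Reln, Tagln and Ttr are given for a level or a call alone, with values known, and do not count as named genes. Group counts are of probes, and some genes have more than 1. Promoter letters came from RefSeq GRCr8, matched by symbol.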

Additional observations from a re-analysis of the deposited data

Results flagged for a closer look

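Within each arm, the library measures and the log2 CPM of the named genes were searched for a single library far from the other 7 of its arm, by Dixon's criterion at the 95% level. Of 206 sets of 8 values, 23 held such a library, and chance alone gives about 1 in 20. Of the 16 in the ketoconazole arm, 13 came from the monoculture library of plate 5. Its 10 most abundant probes took 7.07% of its counts and its TMM factor was 1.34. It was the lowest for Alb (926 CPM beside a median of 3333 CPM in the other 7), Chac1 (5.87 beside 25.8), Eci1 (7.14 beside 89.4), Krt18 (653 beside 2475), Krt8 (1232 beside 5172), Ldha (115 beside 361) and Nfkb1 (13.7 beside 90.9). It was the highest for 1 probe each of Fnip2 (212 beside 27.4 CPM), Slc7a1 (31.3 beside 4.796), Wipi1 (180 beside 99.2) and for Shc4 (135 beside 2.36).

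Of the others in that arm, the co-culture library of plate 1 held 0 counts of F5, beside a median of 13.1 CPM. The monoculture library of plate 7 was the lowest for Itgav, at 50.1 beside 83.1 CPM, and the highest for Myc, at 187 beside 123 CPM. In vehicle, the co-culture library of plate 3 gave 16.6% of its counts to its 10 most abundant probes and held Cyp3a2 at 703 CPM, beside a median of 216 CPM. The monoculture library of plate 3 had a TMM factor of 1.04. Cldn4 was at 0.210 CPM in the co-culture library of plate 5 and at 0 in the other 7. Gab2 was lowest in the monoculture library of plate 5, at 3.73 beside 7.57 CPM. Osgin1 was highest in the co-culture library of plate 7, at 395 beside 286 CPM, and Tm4sf4 lowest in the monoculture library of that plate, at 342 beside 1274 CPM.

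The response to ketoconazole at 30 µM differed between days for 34 pairs of a named probe and a later day, by the edgeR interaction test at an adjusted p under 0.05. A positive value is a log2 response that was more positive on day 1. Against day 3 the differences were 2.71 for Ank2, 2.90 for Ddit3, 1.89 for Gab2 and 1.65 for Gadd45a, all genes that rose on day 1. They were -4.52 for Anxa8, -3.09 for Fam13a, -1.64 for Nfkb1, -4.07 for Pdgfb and -1.97 for Slc16a3, all of which fell on day 1.

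Against day 7 the genes that rose on day 1 differed by 3.15 for Ank2, 1.84 for Chac1, 7.43 for Cldn4, 5.35 for 1 probe of Fmn1, 2.91 for Gab2, 1.28 for Myc, 1.92 for Sesn2, 3.37 for Slc4a11 and 2.19 for Trim15. Cldn4 rests on a vehicle arm with almost no counts on day 1, and its fitted value depends on the prior count. The genes that fell on day 1 differed by -3.92 for Anxa8, -1.86 for Cidec, -2.36 for Cyp2f4, -2.39 for F5, -2.60 for Fam13a, -2.12 for Foxa3 and -3.04 for Gstm2. The same held for Icam1 (-1.61), Krt18 (-1.84), Krt8 (-1.59), Nags (-2.18), Nfkb1 (-1.65), Slc16a3 (-2.51), Slc40a1 (-1.53), Srd5a1 (-2.27) and Tm4sf4 (-3.25). The 3 treated libraries that stand apart enter all of these values.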

How the results depend on the processing

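Of 94 named probes called against vehicle, 89 kept the call without each of the 16 libraries and each plate in turn. The others were those of Acat2, Alb and Msmo1 and 1 probe each of Fnip2 and Slc7a1. None of the 94 kept it under every alternative, since monoculture alone called 0. Without the replicate block of plates 1755 probes were called, 1721 of them among the 2285 called with it. The counts were 1106 (486 higher, 620 lower) in co-culture alone, 956 (339 and 617) with the library total as a covariate and 3650 (1731 higher) with limma-voom quality weights, and 0 (0 higher, 0 lower) in monoculture alone. Leaving out 1 plate or library gave 1149 to 2961 called, 440 to 1320 higher and 709 to 1641 lower. Without the 3 treated libraries that stand apart, an alternative chosen after seeing the data, 2839 were called. The number of probes called for the difference between culture models stayed at 0 under each alternative tried.

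DESeq2 gave 2046 in place of 1307 for the step from 10 µM, 222 in place of 49 for day 3, 714 in place of 211 for day 7 and 1532 in place of 937 against the other compounds. Without the plate block these were 861, 26, 147 and 606. Leaving out a plate gave 626 to 1223, 2 to 16, 37 to 131 and 419 to 782, and leaving out the 3 libraries apart gave 1984, 17, 80 and 530.

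Values that changed sign were those of probes that had not passed the test. The second probe of Fmn1 had a log2 change of -0.073 in monoculture alone, -0.13 with the library total as a covariate, -0.14 with voom weights, -0.38 without the 3 libraries apart, and -0.19 to 0.51 when 1 plate or library was left out. Cyp3a2 had -0.0098 without those 3 libraries. The cause of these shifts was not tested. Depth limits low genes most, since 1 CPM is a handful of counts in libraries of 4412501 to 10820668 counts.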

Other observations

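Of 17 tested probes of metal handling genes, which lie outside the groups above, 6 were lower and 0 higher. Slc30a10, a manganese exporter, went from 8.02, 21.9 and 27.0 CPM in vehicle (lowest, median and highest of 8 libraries) to 0.838, 1.46 and 2.93 CPM with ketoconazole, a log2 change of -3.53 ± 0.37 (SE, edgeR adjusted p = 8.22e-06). Slc40a1, the iron exporter ferroportin, fell by 1.52 ± 0.22, from 179, 258 and 381 CPM to 44.5, 92.7 and 150 CPM. The arms of both genes did not overlap. Genes of DNA replication and mitosis were lower for 5 of 17 probes and higher for 0. Ccnd1, which drives entry into the cell cycle, went from 27.0, 60.3 and 111 CPM to 0.266, 13.1 and 27.0 CPM, a log2 change of -2.44 ± 0.57 (edgeR adjusted p = 0.00558). Tyms, which makes thymidylate for replication, fell by 0.89 ± 0.21, and was not called with the library total as a covariate (edgeR adjusted p = 0.107). In co-culture alone Ccnd1 was not called (edgeR adjusted p = 0.0946).

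Bile acid genes were lower for 5 of 19 probes and higher for 0. Fgfr4, the receptor that restrains bile acid synthesis, fell by 1.68 ± 0.37 on the log2 scale, from 5.59, 17.8 and 26.8 CPM to 1.27, 5.13 and 11.2 CPM (SE, edgeR adjusted p = 0.00388), with overlapping arms. In co-culture alone it was not called (edgeR adjusted p = 0.1145). The count was 3 without plate 5, without plate 7 and without either vehicle library of plate 5. Some groups were called at rates near or below those of all probes, 9.55% higher and 12.3% lower. Nuclear-encoded respiratory chain subunits had 4 of 34 probes lower and 0 higher, with 0 lower without plate 1, 1 without plate 7, and 2 without the treated co-culture library of plate 7, the vehicle co-culture library of plate 5 or the vehicle monoculture library of plate 5. Ribosomal protein genes had 3 of 40 probes higher and 0 lower, with 6 higher without the treated monoculture library of plate 5. Heat shock genes had 1 of 11 higher and 2 lower. The higher count was 0 without plates 1, 3 or 7 or either vehicle library of plate 1, and the lower count was 0 without plate 7. Without the treated monoculture library of plate 5 the counts were 2 and 4.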
